A study of Mus musculus with 19 samples.

Results

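Dnmt1, Dnmt3a, Dnmt3b, Uhrf1, Ezh2, Hdac1 and Hdac2 are genes of DNA methylation and chromatin repression, and they were followed here in the neural crest to Schwann cell lineage of the mouse. The genes were chosen by symbol, and every probe set to which the array annotation gives any of the 7 symbols was taken. This gave 8 probe sets of 6 genes, of 12488 probe sets and 8251 named genes in all. No probe set was named for Dnmt3b, which is not analysed here.

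DNA methylation at CpG sites is copied to the new strand after replication by DNMT1, the maintenance methyltransferase, which UHRF1 brings to hemimethylated DNA. DNMT3A and DNMT3B place methyl groups on unmethylated DNA. EZH2 is the catalytic subunit of Polycomb repressive complex 2 (PRC2), which methylates lysine 27 of histone H3, and HDAC1 and HDAC2 are class I histone deacetylases that act within the SIN3, NuRD and CoREST complexes. In mouse Schwann cells HDAC1 and HDAC2 are known to be needed for myelination, and PRC2 is known to hold down injury genes.

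RNA came from cells that carried green fluorescent protein under a glial promoter, in transgenic mice, and that were sorted by flow cytometry. The groups were trunk of E9.5 embryos (neural crest stem cells, 3 arrays) and sciatic nerve from 5 stages, namely embryonic days E12, E14 and E16, then E18, then newborns of P0, with 3 arrays a stage and 4 for E16. The same reporter and sort were used for all 6 stages, so each sample holds cells sorted by that reporter, which may include cells of other types. The step to E12 changes body region together with age, and the labels do not say which arrays came from separate animals or litters, so a p-value here speaks only of the spread of these arrays, which may be technical.

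The 4 promoters are shown because Dnmt1, Uhrf1, Ezh2 and Dnmt3a were the genes called over the 6 stages. The sequences are from RefSeq on build GRCm38.p6, from 250 bases before to 50 after a listed transcription start, and where several starts were listed the one with most CpG is shown. Capitals mark matches to the E2F core motif, which has 4 spellings, the first TTCCCGC, the second TTCGCGC, the third TTGCCGC and the last TTGGCGC, each searched on both strands. E2F factors are known regulators of S-phase genes.
Dnmt1 (chr9:20952574-20952873, minus strand): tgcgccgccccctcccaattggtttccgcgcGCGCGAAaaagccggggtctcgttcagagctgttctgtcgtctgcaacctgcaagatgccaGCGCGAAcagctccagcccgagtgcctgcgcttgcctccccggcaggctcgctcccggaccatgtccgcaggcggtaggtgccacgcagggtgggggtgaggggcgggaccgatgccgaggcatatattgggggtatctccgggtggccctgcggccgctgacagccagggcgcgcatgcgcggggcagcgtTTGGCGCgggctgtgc
Uhrf1 (chr17:56304063-56304362, plus strand): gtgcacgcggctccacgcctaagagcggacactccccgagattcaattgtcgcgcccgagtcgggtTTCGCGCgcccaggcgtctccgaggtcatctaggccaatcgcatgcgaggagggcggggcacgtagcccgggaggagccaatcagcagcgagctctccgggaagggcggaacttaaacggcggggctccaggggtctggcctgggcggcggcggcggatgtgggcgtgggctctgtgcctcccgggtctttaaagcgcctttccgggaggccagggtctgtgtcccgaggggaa
Ezh2 (chr6:47594981-47595280, minus strand): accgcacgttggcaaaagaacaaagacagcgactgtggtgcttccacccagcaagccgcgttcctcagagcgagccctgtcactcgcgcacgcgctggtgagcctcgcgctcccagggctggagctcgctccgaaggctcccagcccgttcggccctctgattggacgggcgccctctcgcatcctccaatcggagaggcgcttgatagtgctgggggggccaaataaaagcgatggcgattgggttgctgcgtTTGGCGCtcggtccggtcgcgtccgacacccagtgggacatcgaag
Dnmt3a (chr12:3806910-3807209, plus strand): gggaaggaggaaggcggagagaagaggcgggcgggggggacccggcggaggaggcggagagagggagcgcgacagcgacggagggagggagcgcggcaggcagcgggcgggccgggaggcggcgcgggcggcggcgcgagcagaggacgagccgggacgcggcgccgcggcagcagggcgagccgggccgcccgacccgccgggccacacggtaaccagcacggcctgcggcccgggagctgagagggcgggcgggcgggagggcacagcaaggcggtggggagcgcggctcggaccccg

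The Dnmt1 window held 3 matches, the first bases of which lay at -219 and -158 on the opposite strand and at 34 on the gene's own strand, counted from the listed start. The 2 opposite-strand matches read TTCGCGC there, printed above as GCGCGAA. Uhrf1 held 1 match at -184 and Ezh2 held 1 match at 4, both on the gene's own strand. The Dnmt3a window above held 0 matches, as did those of Dnmt3b and Hdac2, which are not printed, and no window was used for Hdac1. The other listed starts of Dnmt1 and Dnmt3a had 0 matches, and the other Uhrf1 start had 1 in a window with 12 CpG. Such letters occur in 10.1% of promoters when 1 is taken per gene, and in 25.7% of the 3497 genes whose window holds 30 or more CpG. That minimum is the lowest count among the windows chosen, which had 33 CpG in Dnmt1, 33 in Uhrf1, 31 in Ezh2, 47 in Dnmt3a, 30 in Dnmt3b and 36 in Hdac2. A match is a description of the sequence, and binding was not measured.

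The values below are expression indices, an intensity per probe set on a linear scale. Levels of different probe sets cannot be set against each other. The median index of an array was 174 to 207. Of the 12 markers listed for neural crest and Schwann glia, 9 had a named probe set, and their summed index was 12230 to 19720 at P0 and 5807 to 6871 at E9.5. At P0 against E9.5, 2 of the 9 were called higher and 2 lower. Mbp (4374 at P0 and 122 at E9.5) and Pmp22 (5576 at P0 and 374 at E9.5), genes of myelin proteins, were higher, and Fabp7 (211 at P0 and 1525 at E9.5), a fatty acid binding protein, and Tfap2a (536 at P0 and 876 at E9.5), a transcription factor of the neural crest, were lower. Some arrays stood apart from others of their stage. Replicate 4 of P0 had higher levels of 5 of the 6 genes (all but Dnmt3a) than the other P0 arrays, and replicates 3 and 4 of E16 had higher levels of Dnmt1, Uhrf1, Hdac1 and Hdac2 than replicates 1 and 2. The ratio of the 3' to the 5' probe set of GAPDH, a measure of how much of the transcript length was labelled, was 4.69 in replicate 4 of P0, against 7.69 and 6.80 in replicates 1 and 3. It was 4.26 and 3.84 in replicates 3 and 4 of E16, against 5.80 and 9.12 in replicates 1 and 2. At E9.5 it was 3.41, 2.33 and 2.46, so P0 and E9.5 did not overlap in this ratio.

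**Figure D1:**
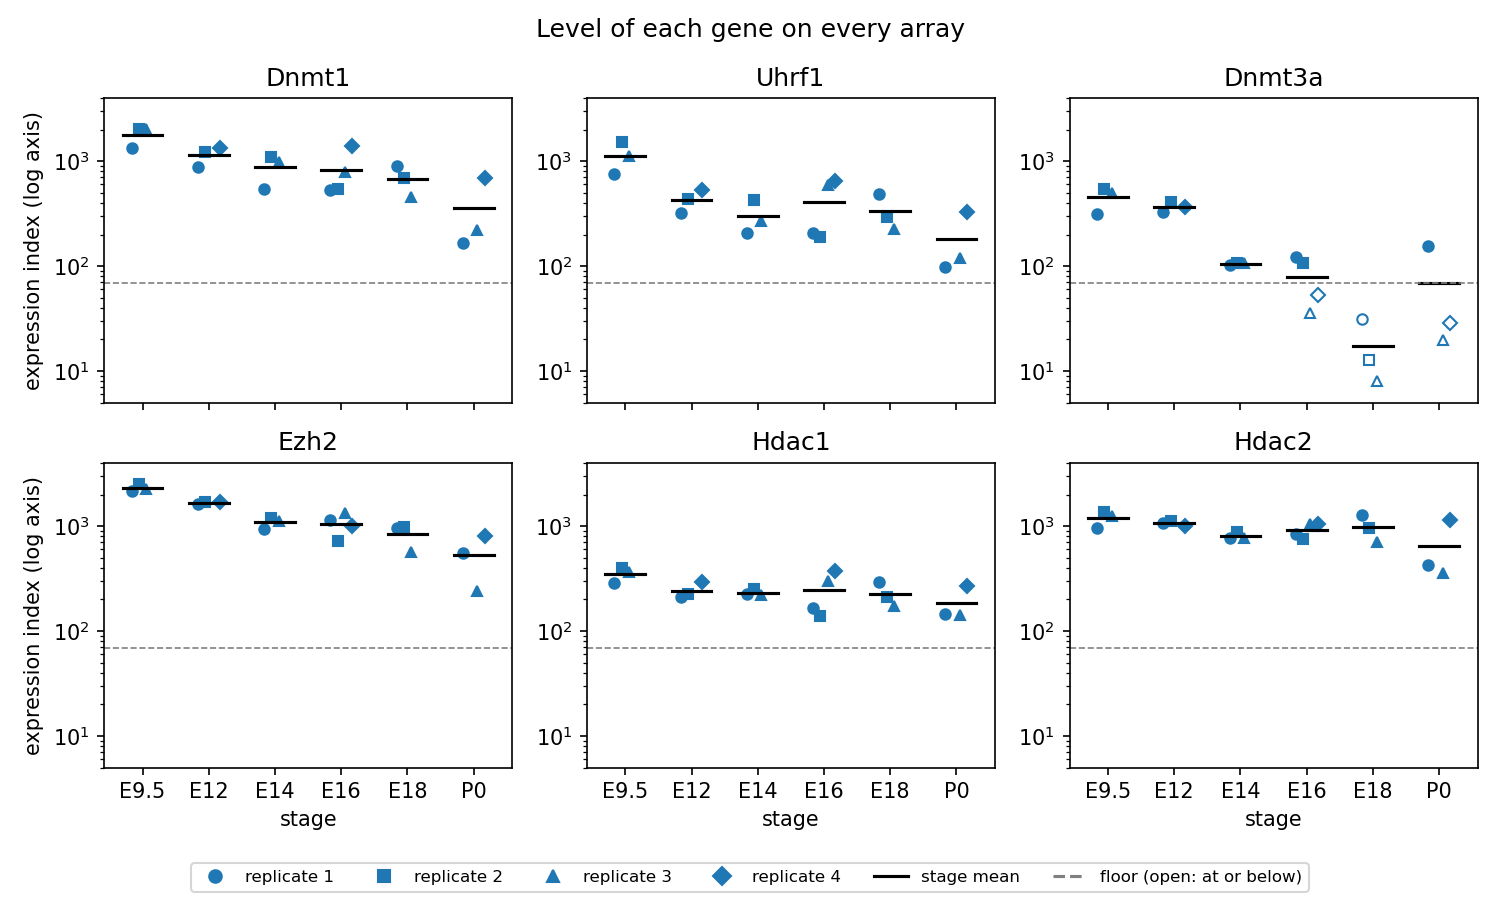
Expression index of Dnmt1, Uhrf1, Dnmt3a, Ezh2, Hdac1 and Hdac2 on each of the 19 arrays (log axis), by stage, with the replicate number as the marker and the stage mean as a line. Open points are at or under the floor of 68.5, and the highest stage mean of all 6 genes is at E9.5.

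Dnmt1 (probe set 101445_at) had a lower mean at each later stage and was lower at P0 than at E9.5 and at E12. Its index was 1329, 2014 and 2024 at E9.5, 882, 1229 and 1343 at E12, and 544, 1104 and 993 at E14. It was then 532, 538, 795 and 1403 at E16, 901, 698 and 451 at E18, and 167, 219 and 698 at P0. The stage means were 1789 ± 398 for E9.5, 1151 ± 240 for E12, 880 ± 296 for E14, 817 ± 409 for E16, 683 ± 225 for E18 and 362 ± 293 for P0 (SD, n = 3, but 4 at E16). No neighbouring stages in that order were free of overlap, and replicate 4 of P0 reached the level of E18. At P0 Dnmt1 was 5.96-fold lower than at E9.5 (log2 change -2.57, SE 0.47, limma adjusted p = 0.00062). Without replicate 4 of P0 this log2 change was -3.20, and with the GAPDH ratio as a covariate it was -0.99 and not called (limma adjusted p = 0.23). It was 3.84-fold lower at P0 than at E12 (log2 change -1.94, SE 0.47, limma adjusted p = 0.0098), a call that was lost without replicate 1 of P0 (limma adjusted p = 0.055) and with the GAPDH ratio as a covariate (limma adjusted p = 0.11), and without replicate 4 of P0 the change was -2.56. In these bulk samples, fewer cells of a type and less RNA per cell cannot be told apart. A second Dnmt1 probe set (161601_i_at), whose ID suffix marks an incomplete set of probes, stayed between 23.4 and 65.3, under the floor of 68.5 on every one of the 19 arrays, and was not tested.

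Uhrf1 (99564_at), the partner of DNMT1, was lower at P0 than at E9.5. Its index was 751, 1509 and 1130 at E9.5, 321, 439 and 532 at E12, and 209, 427 and 267 at E14. It was 206, 190, 599 and 647 at E16, 487, 293 and 224 at E18, and 97.5, 118 and 331 at P0. The E9.5 arrays lay above all E12 arrays, and the later stages overlapped their neighbours. The stage means were 1130 ± 379 for E9.5, 431 ± 106 for E12, 301 ± 113 for E14, 410 ± 246 for E16, 334 ± 136 for E18 and 182 ± 129 for P0 (SD). At P0 Uhrf1 was 6.94-fold lower than at E9.5 (log2 change -2.80, SE 0.53, limma adjusted p = 0.00075). With the GAPDH ratio as a covariate this log2 change was -0.82 and not called (limma adjusted p = 0.31). Among the 5 nerve stages alone no difference was called (limma F-test, adjusted p = 0.31).

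Dnmt3a (100479_at), the de novo methyltransferase, was lower at E14 than at E12. It had 314, 547 and 502 at E9.5 and 326, 412 and 364 at E12. At E14 the 3 arrays lay close together at 102, 108 and 106. The index was 123, 106, 35.7 and 53.1 at E16, 31.4, 12.7 and 8.01 at E18, and 156, 20.0 and 29.0 at P0. All E14 arrays lay under all E12 arrays, and no other neighbours in the order of its stage means were free of overlap. At E14 Dnmt3a was 3.47-fold lower than at E12 (log2 change -1.80, SE 0.30, limma adjusted p = 0.0024). The call held in 17 of 18 alternatives and was lost with the floor at the 10th percentile of all values (limma adjusted p = 0.13). From E16 on, many arrays were at or under the floor, with 2 of 4 at E16, 3 of 3 at E18 and 2 of 3 at P0, so those arrays give only an upper limit on the level. The means were 454 ± 124 for E9.5, 367 ± 43.2 for E12, 105 ± 3.28 for E14, 79.4 ± 41.7 for E16, 17.4 ± 12.4 for E18 and 68.4 ± 76.3 for P0 (SD). With these arrays set to the floor, the log2 change at P0 was -2.29 against E9.5 (SE 0.30, limma adjusted p = 2.5e-05) and -2.02 against E12 (SE 0.30, limma adjusted p = 2e-04). Over the 18 alternatives the change at P0 against E9.5 ran from -3.16 to -1.68 and that against E12 from -2.89 to -1.41, and all were called. Within lot 1, which holds replicate 1 of P0, P0 against E9.5 was -1.005, and within lot 3 it was -2.87, each from 1 array a stage. Replicate 1 of P0 stood at 156, above every E14 array. A second Dnmt3a probe set (161170_r_at), whose suffix marks one with probe rules dropped, read 0 to 17.1 on the 19 arrays and was not tested.

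Ezh2 (99917_at), the PRC2 methyltransferase, was lower at P0 than at E9.5 and at E12. Its index was 2163, 2507 and 2271 at E9.5, 1613, 1688 and 1701 at E12, and 936, 1201 and 1125 at E14. It was 1136, 724, 1322 and 998 at E16, 963, 988 and 563 at E18, and 557, 243 and 804 at P0. The arrays of E9.5, E12 and E14 fell into 3 levels without overlap, and the stages from E14 on overlapped their neighbours. The means were 2314 ± 176 for E9.5, 1667 ± 47.5 for E12, 1088 ± 136 for E14, 1045 ± 252 for E16, 838 ± 239 for E18 and 535 ± 281 for P0 (SD). At P0 Ezh2 was 4.84-fold lower than at E9.5 (log2 change -2.27, SE 0.33, limma adjusted p = 8.4e-05) and 3.49-fold lower than at E12 (log2 change -1.80, SE 0.33, limma adjusted p = 0.0014). The P0 against E9.5 call of Ezh2 and that of Dnmt3a held in 18 of 18 alternatives each.

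Hdac1 (96046_at) and Hdac2 (160643_at), the deacetylases, were lower at P0 than at E9.5 by smaller folds. Hdac1 had 288, 401 and 368 at E9.5, 210, 227 and 294 at E12, and 226, 251 and 220 at E14. It had 166, 140, 303 and 372 at E16, 293, 212 and 174 at E18, and 146, 143 and 271 at P0. All P0 arrays lay under all E9.5 arrays, while all neighbours in the order of its stage means overlapped. Hdac2 had 955, 1367 and 1236 at E9.5, 1076, 1124 and 1011 at E12, and 762, 877 and 777 at E14. It had 845, 756, 1055 and 1041 at E16, 1285, 952 and 703 at E18, and 426, 357 and 1147 at P0. Replicate 4 of P0 was therefore within the E9.5 range, and the other P0 arrays were under every array of all earlier stages. Hdac2 averaged 643 ± 437 for P0 and 1186 ± 211 for E9.5, and Hdac1 averaged 187 ± 73.3 for P0 and 352 ± 58.1 for E9.5 (SD). At P0 Hdac2 was 2.10-fold lower than at E9.5 (log2 change -1.07, SE 0.33, limma adjusted p = 0.021). Hdac1 was 1.96-fold lower (log2 change -0.97, SE 0.33, limma adjusted p = 0.039). Each of these calls held in only 11 of 18 alternatives. Without replicate 2 or 3 of E9.5, or replicate 1 or 3 of P0, the adjusted p was 0.06 to 0.12 for Hdac2 and 0.096 to 0.14 for Hdac1 in limma.

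Against E9.5, all 6 tested probe sets were lower at P0, where 28% of the 10414 tested probe sets were called and 15.9% were called lower. The P0 arrays of 5 of them lay under all E9.5 arrays, which held for 17.9% of tested probe sets. Their median log2 change was -2.28, against a median of all tested probe sets within 0.04 of 0 in every comparison. When the GAPDH ratio was added to the model as a covariate, Dnmt3a (log2 change -2.76, limma adjusted p = 0.00036) and Ezh2 (log2 change -1.58, limma adjusted p = 0.028) were still called. Dnmt1, Uhrf1, Hdac2 (-0.27, limma adjusted p = 0.75) and Hdac1 (0.28, limma adjusted p = 0.63) were not called there. Over the whole table that fit called 1334 probe sets higher and 544 lower, against 1261 higher and 1655 lower without the ratio. The ratio moves with stage, and its part in the result was not tested. Within the lot batches of the labels that held both stages, lots 1 and 3, the log2 change of P0 against E9.5 was negative in both lots for each of the 6 genes. For Dnmt1 it was -2.99 in lot 1 and -3.21 in lot 3, and for Ezh2 it was -1.96 in lot 1 and -3.22 in lot 3. Each of these values is 1 array against 1 array. Replicate 4 of P0, in lot 4, does not enter them, since that lot held no E9.5 array.

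**Figure D2:**
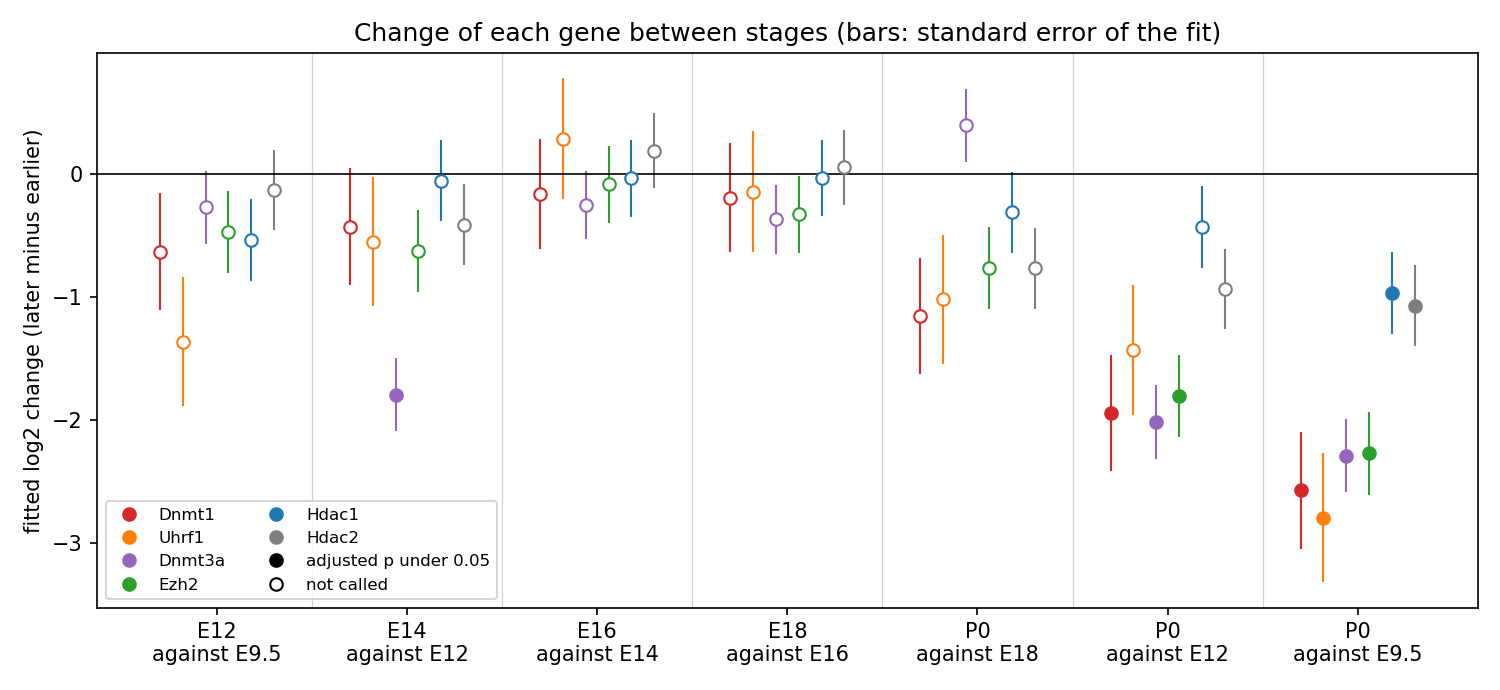
Fitted log2 change (later minus earlier stage) of the 6 genes in the 7 comparisons, with bars for the standard error of the fit. Filled points have a limma adjusted p under 0.05: all 6 genes in P0 against E9.5, Dnmt1, Dnmt3a and Ezh2 in P0 against E12, and Dnmt3a in E14 against E12.

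The steps between neighbouring stages share arrays and are given side by side. At E12 against E9.5 limma called 0 of the 6 probe sets, and 1 (Uhrf1) had an unadjusted p under 0.05, where 14.1% of all tested probe sets were called. Uhrf1 had a difference of -1.37 (SE 0.53, limma adjusted p = 0.10), Dnmt1 of -0.63, Hdac1 of -0.54, Ezh2 of -0.47, Dnmt3a of -0.27 and Hdac2 of -0.13 on the log2 scale. The E12 arrays of Uhrf1 and of Ezh2 lay under all E9.5 arrays, as did those of 15.1% of tested probe sets. Uhrf1 was called under 6 of 18 alternatives, with limma adjusted p-values of 0.0052 to 0.43 over all of them. Markers listed for other cell types were called in this step. Of 11 tested macrophage markers 6 were higher and 0 lower, with sums of 2969 to 5675 at E12 and 1883 to 2229 at E9.5. Of 8 erythroid markers 3 were higher and 0 lower, and of 10 tested fibroblast markers 2 were higher and 1 lower. Of 12 dissociation stress genes 9 were higher and 0 lower. The part of these genes in the differences was not tested.

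At E14 against E12 the 1 call was Dnmt3a, where 2.09% of tested probe sets were called and 1.02% were called lower. Ezh2 had a log2 difference of -0.62, Uhrf1 of -0.55, Dnmt1 of -0.43, Hdac2 of -0.41 and Hdac1 of -0.05, and none of these passed (lowest limma adjusted p = 0.54, Ezh2). The E14 arrays of Dnmt3a, Ezh2 and Hdac2 lay under all E12 arrays, as did those of 14.3% of tested probe sets. Markers listed for other cell types were also called in this step. Of 10 tested fibroblast markers 2 were higher and 0 lower, Col1a1 (3751 at E14 and 67.3 at E12, 1 E12 array at the floor) and Col3a1. The summed index of the 11 on the array was 12410 to 18070 at E14 and 5914 to 6701 at E12, without overlap. Most of the E14 sum came from Col1a1, Col1a2 and Col3a1 (means 3751, 5365 and 4686). Of 8 erythroid markers 1 was lower, Hba-x, and their sums overlapped, with 3293 to 6748 at E14 and 3380 to 10590 at E12. Of 11 tested macrophage markers limma called 0, with 3 at an unadjusted p under 0.05, and the sums of all 13 overlapped, with 2454 to 4097 at E14 and 2969 to 5675 at E12 and with Lyz2 and Fcer1g at the floor on every array. In the glial list Mbp and Pmp22 were higher and 0 genes lower. The part of these markers in the Dnmt3a result was not tested. Within lots that held both stages, Dnmt3a differed by -1.68 in lot 1 and by -1.93 in lot 2, each from 1 array a stage.

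Limma called 0 of the 6 probe sets at E16 against E14, where 1.69% of tested probe sets were called, and 0 at E18 against E16, where 0.0768% were called. In each of these steps 0 of the 6 had an unadjusted p under 0.05. The log2 changes lay between -0.25 (Dnmt3a) and 0.29 (Uhrf1) at E16 against E14, and between -0.33 (Ezh2) and 0.06 (Hdac2) at E18 against E16 for the 5 genes other than Dnmt3a. For Dnmt3a all E18 arrays and 2 of 4 E16 arrays were at or under the floor, so the order of these arrays is not interpreted. Its log2 change there was -0.37 with the floor used and -1.32 with the floor at the 10th percentile, and neither was called (limma adjusted p = 0.76 and 0.52). At E18 against E16, lots 1 and 3 disagreed in sign for 5 of the genes, for example 0.75 in lot 1 and -0.82 in lot 3 for Dnmt1. These lots held 1 E18 array each, with 2 E16 arrays in lot 1 and 1 in lot 3.

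At P0 against E18, limma called 0 of the 6 probe sets, and 3 had an unadjusted p under 0.05, where 0.125% of tested probe sets were called. Dnmt1 had a log2 difference of -1.16 (SE 0.47, limma adjusted p = 0.36), Uhrf1 of -1.02 (SE 0.53), Hdac2 of -0.77 (SE 0.33), Ezh2 of -0.77 (SE 0.33) and Hdac1 of -0.31. Dnmt3a had one of 0.40, with all E18 arrays and 2 of 3 P0 arrays at the floor. Without replicate 4 of P0, Dnmt1 (-1.78, limma adjusted p = 0.019), Hdac2 (-1.29, limma adjusted p = 0.0057) and Ezh2 (-1.14, limma adjusted p = 0.041) were called, among 714 probe sets called in all. At P0 against E12, 3 of the 6 were called, where 16.4% of tested probe sets were called and 11.8% were called lower (472 higher and 1233 lower, or 756 higher and 1109 lower after quantile normalization). Uhrf1 (-1.43, limma adjusted p = 0.076), Hdac2 (-0.94, limma adjusted p = 0.061) and Hdac1 (-0.43, limma adjusted p = 0.42) were not called there. Without replicate 4 of P0 the count was 5 of 6, with Uhrf1 and Hdac2 added. In a fit of only these stages the count was 1 of 6, Dnmt3a, among 430 probe sets called in all. The adjusted p-values in that fit were 0.13 for Dnmt1 and 0.097 for Ezh2 in limma. The count over all probe sets also changed when 1 array was left out, as given in the closing section. Lots 1 and 4 each held 1 array of P0 and 1 of E12. There Dnmt3a differed by -1.06 in lot 1 and -2.41 in lot 4, Dnmt1 by -2.40 in lot 1 and -0.94 in lot 4, and Ezh2 by -1.53 in lot 1 and -1.08 in lot 4. Hdac2 differed in sign between these lots, with -1.34 in lot 1 and 0.18 in lot 4. Markers listed for other cell types were called in this comparison too. Of 11 tested macrophage markers 4 were lower and 0 higher (Ctss, Laptm5, C1qc and Csf1r), with sums of 2011 to 2351 at P0 and 2969 to 5675 at E12. Of 8 erythroid markers 2 were lower and 0 higher (Hbb-y and Hba-x), with sums of 2268 to 2665 at P0 and 3380 to 10590 at E12. Of 10 tested fibroblast markers 3 were higher and 0 lower (Col1a1, Col1a2 and Col3a1), with sums of 18260 to 23240 at P0 and 5914 to 6701 at E12. Most of the P0 sum came from these 3 collagen genes (means 6207, 7548 and 6096). The part of these marker groups in the changes of Dnmt1, Dnmt3a and Ezh2 was not tested.

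Across all 6 stages, limma's moderated F-test called 4 of the 6, where 29% of tested probe sets were called. These were Dnmt3a (adjusted p = 4.1e-06), Ezh2 (0.00086), Dnmt1 (0.0091) and Uhrf1 (0.013), while Hdac2 (0.14) and Hdac1 (0.30) were not called. With the GAPDH ratio as a covariate, Dnmt1 (limma adjusted p = 0.059) and Uhrf1 (limma adjusted p = 0.21) were not called, and without replicate 2 of E9.5 Uhrf1 was not called (limma adjusted p = 0.067). Across the 5 nerve stages it called 2, Dnmt3a (adjusted p = 0.00017) and Ezh2 (0.014), where 13.1% of tested probe sets were called.

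**Figure D3:**
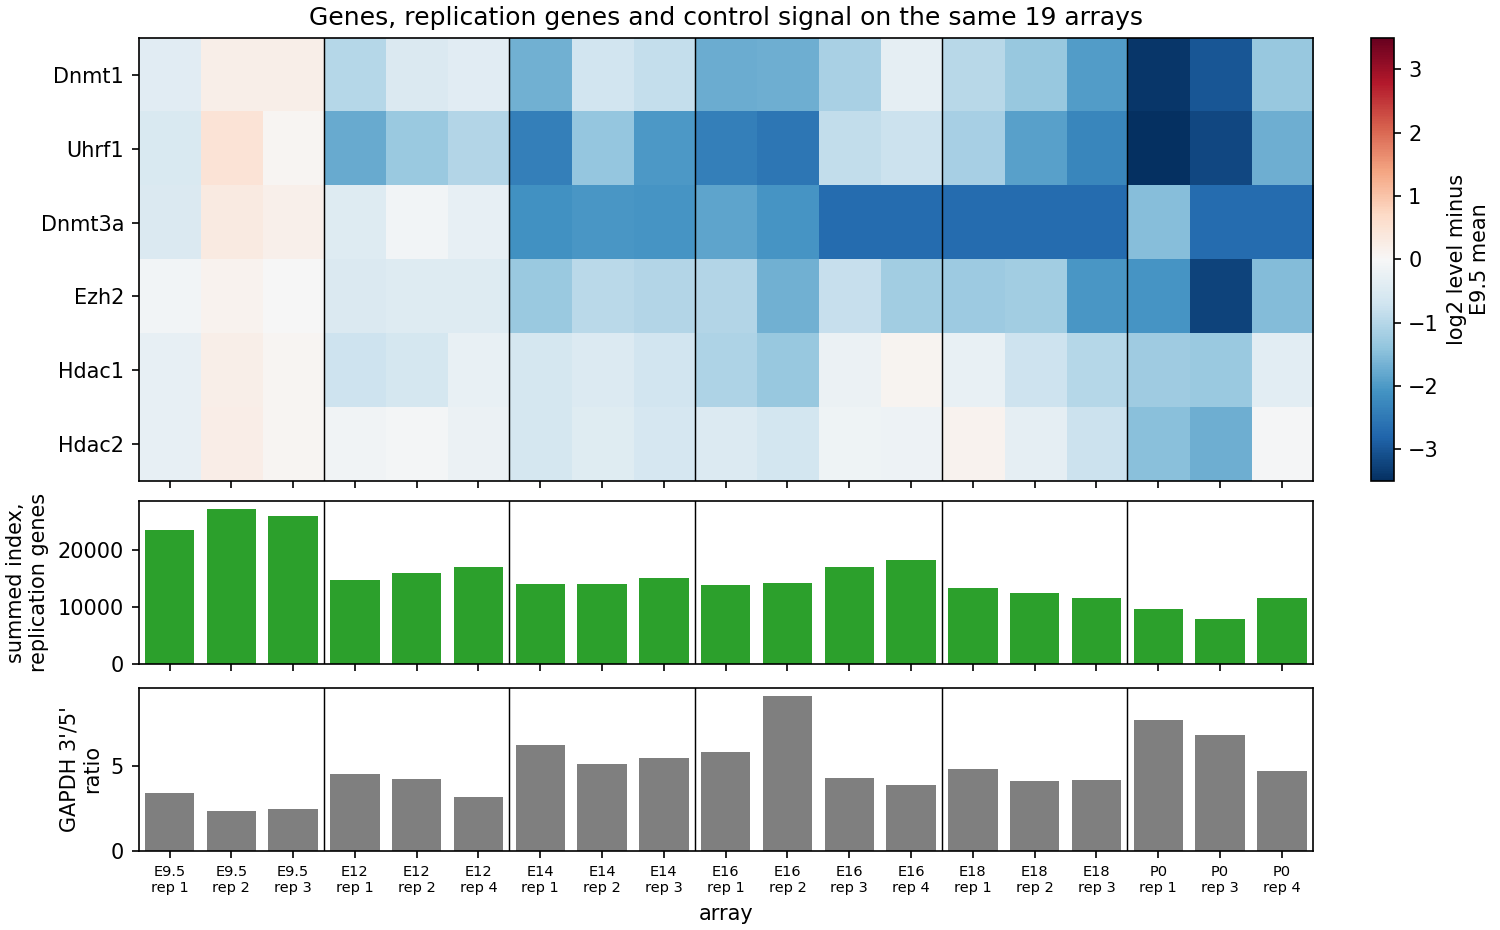
Log2 level of the 6 genes relative to their E9.5 mean on the 19 arrays (top), with the summed index of 27 replication genes (middle) and the GAPDH 3'/5' ratio (bottom) on the same arrays, from E9.5 on the left to P0 on the right. The replication sum is 7803 to 11466 at P0 and 23481 to 27225 at E9.5.

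Genes of DNA replication moved in the same direction as Dnmt1 and Uhrf1, and levels of the members were not adjusted for them. The summed index of 27 replication genes was 7803 to 11466 at P0 and 23481 to 27225 at E9.5, and of 25 tested genes 21 were lower at P0 and 0 higher, with a median log2 change of -2.01. Rrm2, a subunit of ribonucleotide reductase, averaged 185 at P0 and 2019 at E9.5 (log2 change -3.61, SE 0.48, limma adjusted p = 3.2e-05). Mcm7, part of the replicative helicase, averaged 137 at P0 and 940 at E9.5 (log2 change -2.80, limma adjusted p = 6e-06). Of 14 genes of G2 and mitosis, 13 were lower and 0 higher, with a median of -1.58, and of 7 E2F and pocket protein genes 4 were lower and 0 higher. At P0 against E12, 12 of the 25 replication genes were lower and 0 higher, and at E12 against E9.5, 10 were lower and 0 higher, where the 6 genes had 3 and 0 calls. The part of the replication genes in the changes of the 6 genes was not tested. Other marker groups moved in this comparison. The sum of 11 fibroblast markers, at P0 mainly Col1a1, Col1a2 and Col3a1, was 18260 to 23240 at P0 and 1460 to 1971 at E9.5. Of 10 tested, 4 were higher and 1 lower. The sum of 12 dissociation stress genes was 23650 to 40810 at P0 and 3418 to 4685 at E9.5, with 10 of the 12 higher. Their part in the result was not tested either.

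For each gene called over the 6 stages, the most similar profiles were sought among 2756 probe sets. These were the probe sets with a single symbol that the F-test over the 6 stages called, so Hdac1 and Hdac2 were not among them. The measure was the root mean square difference of the 6 stage means on the log2 scale, each centred. The nearest to Dnmt1 were Rpa2 (0.090), Ppid (0.096) and Mcm3 (0.102), with Ezh2 at 0.131 and Uhrf1 at 0.291. The nearest to Ezh2 were G3bp2 (0.078), Cks1b (0.125) and Cdc25c (0.127), and those to Uhrf1 were Tacc3 (0.157), Aurka (0.162) and Srsf1 (0.162). Dnmt3a was nearest to Hoxb6 (0.191), Park7 (0.20) and Pcbd1 (0.235), and lay at 0.587 to 0.881 from the other members. These Dnmt3a distances rest in part on values set equal to the floor, since most of its arrays from E16 on are there, as are the means of Pcbd1 at those stages. The distances are over 6 stage means and describe shape only.

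Genes that work with or against the methyltransferases were called in both directions. At P0 against E9.5, where 12.1% of all tested probe sets were called higher and 15.9% lower, the lists gave the following counts. Of 5 tested DNA methylation partners, 3 were lower at P0 than at E9.5 and 0 higher. Hells, a chromatin remodeller needed for normal methylation, averaged 16.6 at P0 and 268 at E9.5, with all 3 P0 arrays at the floor. It averaged 64.6 at E12, with 2 of 3 arrays at the floor, and was called lower there than at E9.5 (limma adjusted p = 0.0024), so the size of the change is limited by the floor. Ahcy, which clears the S-adenosylhomocysteine made by methylation, averaged 2114 at P0 and 4494 at E9.5 (log2 change -1.13, limma adjusted p = 0.00064). Of 4 tested genes of demethylation and base repair, 1 was higher and 1 lower. Gadd45b averaged 1902 at P0 and 20.2 at E9.5, where all 3 arrays were at the floor (limma adjusted p = 3.4e-05), and Gadd45a averaged 293 at P0 and 903 at E9.5 (log2 change -1.66, limma adjusted p = 0.00026). Both are known as stress-induced genes. Of 3 tested readers of methylated CpG, 1 was higher at P0 than at E9.5 and 0 lower. It was Mbd2, which binds methylated DNA, with 253 at P0 and 85.7 at E9.5, where 1 array was at the floor (log2 change 1.51, SE 0.28, limma adjusted p = 0.0006). At E12 Mbd2 averaged 252 and was also called higher than at E9.5 (log2 change 1.58, SE 0.28, limma adjusted p = 0.0008).

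Among 9 tested PRC2 partners, 3 were lower at P0 than at E9.5 and 0 higher, with a median of -0.54 against -2.27 for Ezh2. Eed, the subunit that binds methylated lysine 27, averaged 420 at P0 and 1110 at E9.5 (log2 change -1.56, SE 0.36, limma adjusted p = 0.0037). Mtf2, a PRC2 accessory protein, averaged 226 at P0 and 528 at E9.5 (log2 change -1.33, SE 0.30, limma adjusted p = 0.0031). Jarid2, another accessory protein, had its highest mean at E12. It averaged 1669 at E12 and 911 at E9.5 (log2 change 0.88, SE 0.14, limma adjusted p = 0.00042), and 844 at E14 against that E12 level (log2 change -0.99, SE 0.14, limma adjusted p = 0.00068). Suz12 averaged 197 at P0 and 330 at E9.5 and was not called (limma adjusted p = 0.15). Ezh1, the other PRC2 methyltransferase, averaged 76.1 at P0 and 76.7 at E9.5, near the floor (limma adjusted p = 0.85).

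Genes of the other Polycomb complex, PRC1, were called in both directions. Of 10 tested genes 4 were higher at P0 than at E9.5 and 1 lower. Pcgf2 averaged 716 at P0 and 231 at E9.5 (log2 change 1.61, SE 0.17, limma adjusted p = 3.8e-06), and Cbx6 averaged 522 at P0 and 263 at E9.5 (log2 change 0.91, limma adjusted p = 0.034). Rnf2, the ubiquitin ligase of PRC1, was lower, with 787 at P0 and 1632 at E9.5 (log2 change -1.08, SE 0.24, limma adjusted p = 0.0031).

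Other deacetylases and their complexes gave mixed results. Of 6 other deacetylases 1 was higher at P0 than at E9.5 and 0 lower. It was Sirt2, a deacetylase found in myelinating glia, with 668 at P0 and 188 at E9.5 (log2 change 1.65, SE 0.34, limma adjusted p = 0.0018). Of 10 tested genes of the HDAC1/2 complexes and corepressors, 1 was higher and 3 lower. Sap30, a SIN3 complex subunit, averaged 120 at P0 and 587 at E9.5 (log2 change -2.29, SE 0.22, limma adjusted p = 1.1e-06), and the scaffold Sin3a averaged 291 at P0 and 592 at E9.5 (log2 change -1.03, SE 0.18, limma adjusted p = 0.00038). The corepressor Ctbp2 averaged 427 at P0 and 1215 at E9.5 (log2 change -1.72, SE 0.36, limma adjusted p = 0.0018).

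Of 6 tested genes of histone H3 lysine 9 methylation and HP1, 4 were lower and 0 higher, with a median of -1.24. Suv39h2, a lysine 9 methyltransferase, averaged 83.5 at P0, with 1 array at the floor, and 386 at E9.5 (log2 change -2.17, SE 0.18, limma adjusted p = 2.5e-07). The HP1 gene Cbx5 averaged 264 at P0 and 721 at E9.5 (log2 change -1.50, SE 0.21, limma adjusted p = 5.8e-05). Of 4 tested demethylases and acetyltransferases 1 was higher at P0 than at E9.5 and 0 lower. It was Kat2b, a histone acetyltransferase, with 796 at P0 and 87.6 at E9.5 (log2 change 3.12, SE 0.27, limma adjusted p = 3e-07).

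**Figure D4:**
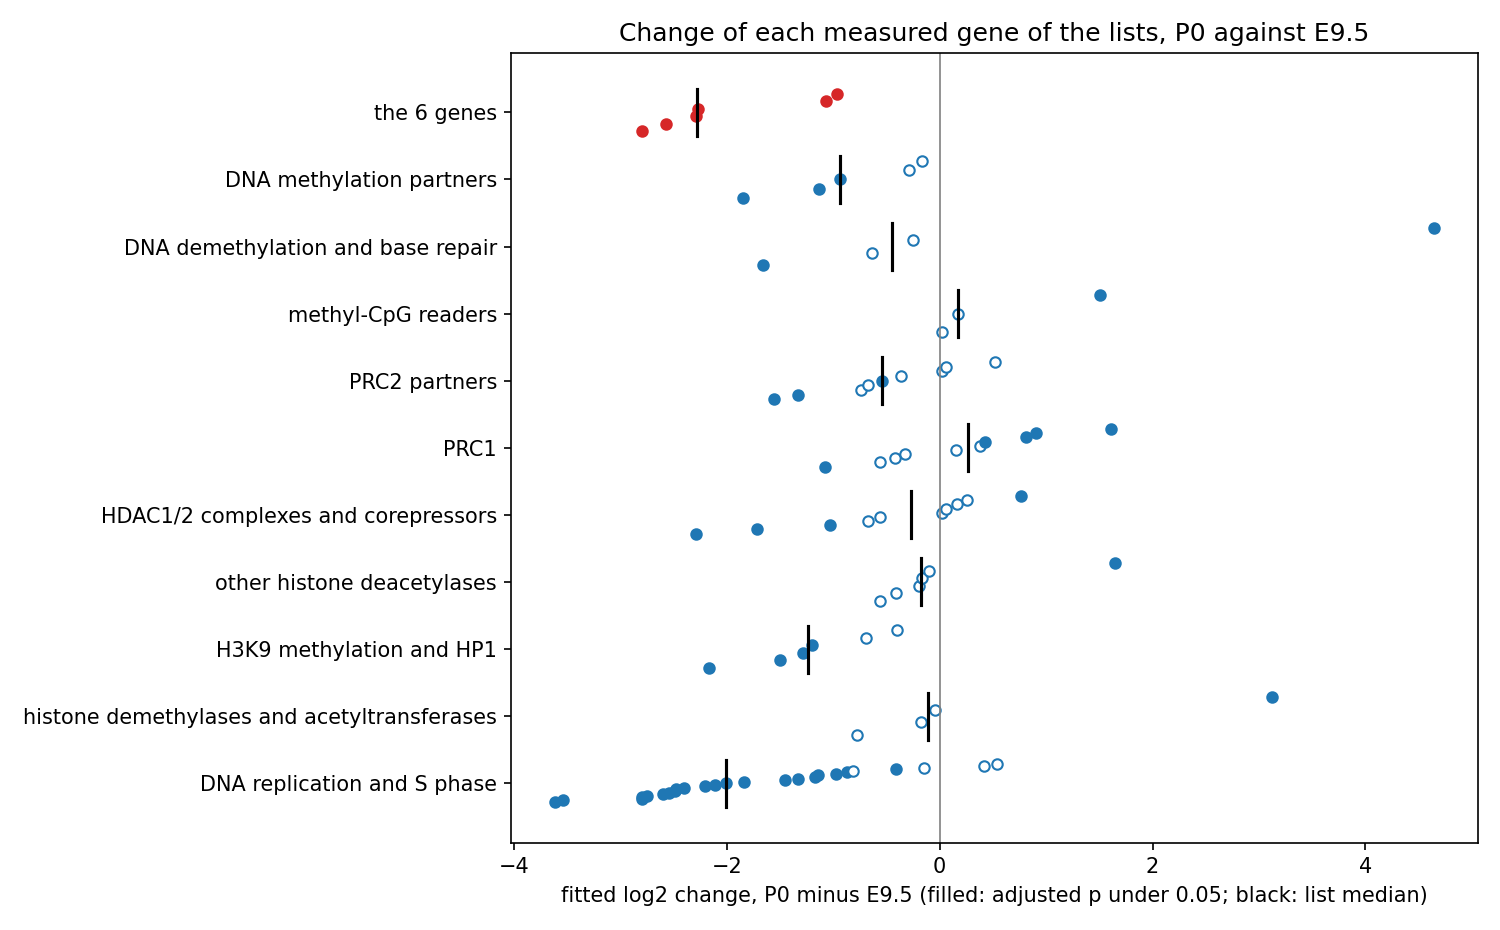
Fitted log2 change, P0 minus E9.5, of every tested gene of the lists (1 point a gene, filled where the limma adjusted p is under 0.05, black bar at the list median). The 6 genes have a median of -2.28 and the replication genes one of -2.01, and the PRC1 genes lie on both sides of 0.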

How the data were processed

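RNA of 19 samples was measured on Affymetrix mouse arrays, 1 per sample, after 2 rounds of in vitro transcription. The deposited values are linear intensity indices, 1 for each probe set and array. Per the labels' protocols the authors normalized the arrays with the smoothing spline of dChip, took probe sensitivities from 18 arrays and computed a model-based index. Array data give no counts, so the number of arrays limits the precision. Probe sets were named through the array annotation, and those with several symbols or none were tested but not named. The gene whose promoter drives the reporter is left out.

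The 25th percentile over the whole table (68.52) served as a floor: lower values were raised to it before log2. Probe sets above the floor on 3 or more arrays (10414) were fitted with limma 3.58.1 (R 4.3.3; lmFit, eBayes), with 1 mean per stage over 19 arrays and 13 residual degrees of freedom. Adjusted p-values are Benjamini-Hochberg values, 2-sided, over all probe sets of a comparison, with a threshold of 0.05. Changes of genes with arrays at the floor depend on the floor. The scripts were tested on simulated data.

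All 8 probe sets of the genes are described. For each list of other genes, up to 4 called over the 6 stages were picked, those with the widest range of stage means. Apart from Tfap2a, Suz12 and Ezh1, the genes of these lists given with levels were taken from these, but not all of them are given. Tfap2a was named as a marker called lower at P0 than at E9.5. Left out were, for example, Cdc6 and Slbp of the replication list and those of the mitosis and E2F lists. Suz12 and Ezh1 were added after their values were seen. The genes and lists were chosen with earlier results of these data known. Of the marker lists, genes called were named in some comparisons and only counted in others. Other floors, filters, normalization, lot and replicate blocks, the GAPDH ratio, array weights and left-out arrays were tried. Promoters are RefSeq's, on GRCm38.p6.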

Additional observations from a re-analysis of the deposited data

How the results depend on the processing

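Of 1134 alternative values of single genes, 1064 were counted as the same, and all of these kept their side of the threshold. That count includes uncalled changes whose sign turned by less than the standard error of the reported fit. For the F-tests only the side of the threshold was compared. The 1 called value that changed sign was Hdac1 at P0 against E9.5, at 0.278 with the GAPDH ratio as a covariate. The counts over all probe sets were as follows, with those reported given first. For E12 against E9.5 (1469) they were 3039 with array weights and 958 to 1269 with 1 array left out. Its split of 1010 higher and 459 lower became 924 and 756 after quantile normalization. For E14 against E12 (218) they were 1173 with weights and 122 to 203 with 1 left out. For E16 against E14 (176) they were 272 with the GAPDH ratio, 912 with weights, 63 with only the compared stages and 107 to 179 with 1 left out. For E18 against E16 (8) they were 3 with the 40th percentile floor, 5 with a filter of 10 arrays, 5 with the lot block, 5 with the replicate block, 1153 with weights, 2 with only the compared stages and 4 to 11 with 1 left out. For P0 against E18 (13) they were 7 without a filter, 56 with quantile normalization, 40 with the replicate block, 865 with weights, 7 with lot 1 of both E16 and P0 left out, 0 with only the compared stages and 2 to 714 with 1 left out, the highest without replicate 4 of P0. For P0 against E12 (1705) they were 2911 with weights, 430 with only the compared stages and 1052 to 2793 with 1 left out. For P0 against E9.5 (2916) they were 1878 with the GAPDH ratio, 1331 with only the compared stages and 2093 to 3446 with 1 left out. Over 6 stages (3018) they were 6461 with weights and 2259 to 3899 with 1 left out, and over 5 nerve stages (1364) 5298 and 859 to 2361. Among the 6 genes, E12 against E9.5 (0) had 1 call with quantile normalization, the lot block, the replicate block or lot 1 of E16 and P0 left out, and 2 with weights or only the compared stages. E14 against E12 (1) had 0 with the 10th percentile floor and 2 with weights. P0 against E18 (0) had 3 with weights and 0 to 3 with 1 left out. P0 against E12 (3) had 5 with weights, 1 with only the compared stages and 2 to 5 with 1 left out. P0 against E9.5 (6) had 2 with the GAPDH ratio and 4 to 6 with 1 left out. Over 6 stages (4) there were 2 with the GAPDH ratio and 3 to 5 with 1 left out, and over nerve stages (2) 4 with weights and 2 to 4 with 1 left out. The cause of these shifts was not tested. Fewer arrays enter the fits of only the compared stages and those with arrays left out. Deviations from the stage means were correlated between same-numbered arrays of different stages. The mean r was 0.022 over 38 pairs (-0.38 to 0.71, 15 over 0.1), and the lot gave 0.042 over 39 pairs (-0.35 to 0.71). With 3 or 4 arrays a stage, these values cannot decide whether the numbers pair the samples. Dnmt3a from E16 on is limited by the floor.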
